A study of Mus musculus with 4 samples.

Results

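The 10 genes described here encode chemokines, small secreted proteins that attract leukocytes through receptors on the target cell: Xcl1, Ccl1, Ccl3, Ccl4, Ccl5, Ccl17, Ccl20, Ccl22, Cxcl3 and Cxcl10. They were chosen by name, with earlier results of these data known, out of 45526 genes or unnamed transcripts on the array. Their accessions matched 11 probes, 1 for each of 9 genes and 2 for Ccl4. The data come from 2 Irf4-/- and 2 wild-type samples of CD4+ T cells, all from spleens of male C57BL/6 mice whose ages are not given in the sources used here. Irf4 is a transcription factor that T cells induce through their antigen receptor, and the labels name no further allele. Naive cells (CD62L+CD44-) of either genotype were activated with antibody to CD3e at 1 µg/ml, 1e+05 cells per well, beside equal numbers of mitomycin C-treated antigen-presenting cells, and living CD4+ cells were sorted on day 2. The genotype of the antigen-presenting cells is not stated beyond that they were syngeneic. The labels speak of 2 independent experiments and do not say how many mice gave each sample. Total RNA of each sample went to 1 one-colour Agilent array.

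Chemokines are grouped by the spacing of their first cysteines into XC, CC, CXC and CX3C families, and most bind G protein-coupled receptors that several ligands share. Activated T cells are known to secrete Xcl1, Ccl1, Ccl3, Ccl4 and Ccl5, whereas Ccl17, Ccl22, Cxcl3 and Cxcl10 are better known from dendritic cells, macrophages and other cells of inflamed tissue. Cxcl10 is a classical interferon-induced gene, and many chemokine genes are switched on by NF-kappaB.

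The values are levels, meaning the log2 signal of a probe minus its array's 75th percentile. A level of a probe cannot be set against that of another probe, so the genes are compared between genotypes and not with each other. Of 56605 probes, 28693 and 25638 exceeded background on Irf4-/- replicates 1 and 2, against 28253 and 26341 on wild-type replicates 1 and 2. All 4 arrays lay on 1 slide, with replicate 1 of each genotype in slide row 1 and replicate 2 in row 2. The lowest level well above background was -4.67 and -3.93 on Irf4-/- replicates 1 and 2, against -4.82 and -4.07 on wild-type replicates 1 and 2. Slide column and genotype cannot be told apart. Irf4 itself had levels of 4.23 and 4.04 on the Irf4-/- arrays, against 5.03 and 4.74 on the wild-type arrays, and was not called (log2 difference -0.75 ± 0.20 SE, adjusted p = 0.231). The place of its probe relative to the deleted part is unknown here, and so this signal does not check the labels. Arrays within a genotype correlated at r = 0.989 (Irf4-/-) and r = 0.992 (wild type) across 20505 tested genes.

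Promoter windows from RefSeq (build GRCm38.p6) were at hand for 8 of the 10 genes. They are shown for the pair of genes with the largest differences between genotypes, Xcl1 and Cxcl10, and for Ccl1, whose window holds an NF-kappaB match. Each run holds the 250 bases before the transcript start, 5′ to 3′ on the gene's strand, and capitals mark a match to one of 5 motifs searched on both strands. The windows searched, and the shares of all windows below, also took in the 50 bases after the start. All matches in the 8 windows lay before the start.
Cxcl10 (chr5:92348890-92349139, minus strand): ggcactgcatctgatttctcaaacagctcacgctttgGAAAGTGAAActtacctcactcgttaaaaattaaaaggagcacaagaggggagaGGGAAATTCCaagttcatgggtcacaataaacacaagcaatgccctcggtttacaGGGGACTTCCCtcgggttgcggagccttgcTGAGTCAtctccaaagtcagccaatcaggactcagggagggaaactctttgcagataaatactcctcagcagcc
Xcl1 (chr1:164935523-164935772, minus strand): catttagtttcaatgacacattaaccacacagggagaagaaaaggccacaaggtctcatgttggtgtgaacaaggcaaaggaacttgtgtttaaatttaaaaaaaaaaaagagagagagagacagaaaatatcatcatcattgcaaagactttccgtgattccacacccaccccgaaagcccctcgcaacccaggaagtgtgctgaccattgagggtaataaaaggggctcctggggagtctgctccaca
Ccl1 (chr11:82179813-82180062, minus strand): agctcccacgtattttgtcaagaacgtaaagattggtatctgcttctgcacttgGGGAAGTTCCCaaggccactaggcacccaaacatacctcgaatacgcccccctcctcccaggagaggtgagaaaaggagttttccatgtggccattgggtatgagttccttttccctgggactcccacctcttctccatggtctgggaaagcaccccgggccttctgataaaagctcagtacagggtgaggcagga
The motifs were the interferon-stimulated response element, the AP-1 site (TGANTCA), the NF-kappaB site, and both AP-1-IRF composite elements (AICE1 and AICE2) that IRF4 is known to occupy together with BATF and JUN. Both composite motifs contain the AP-1 letters. The Cxcl10 window was the only one of the 8 with the interferon element, which opens 213 bases before the start and occurs in 3.44% of all 32851 windows. It also held an AP-1 match that opens 74 bases before the start, against 7.81% of all windows, and NF-kappaB matches that open 159, 104 and 103 bases before it, the last 2 overlapping. NF-kappaB matches occurred in 4 of the 8 windows, those of Ccl1, Ccl20, Cxcl3 and Cxcl10, and in 8.46% of all windows. The Xcl1 window held none of the 5 motifs, and neither composite element was found in any of the 8 windows (0.119% and 0.125% of all). These matches describe letters only.

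Of the 10 chemokine genes, 4 gave signal well above background on all 4 arrays (Ccl1, Ccl3, Ccl4 and Ccl5). Ccl17 and Cxcl10 were above background on both Irf4-/- arrays and on wild-type replicate 1 only, and Xcl1 on both Irf4-/- arrays and on neither wild-type array. These 7 genes entered the test. Cxcl3 was above background on Irf4-/- replicate 1 alone, and Ccl20 and Ccl22 on no array, so for these 3 the name of the group, chemokines made by the cultured cells, was not borne out by the signal. The number of the 10 above background was 8 and 7 on Irf4-/- replicates 1 and 2, against 6 and 4 on wild-type replicates 1 and 2.

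**Figure D1:**
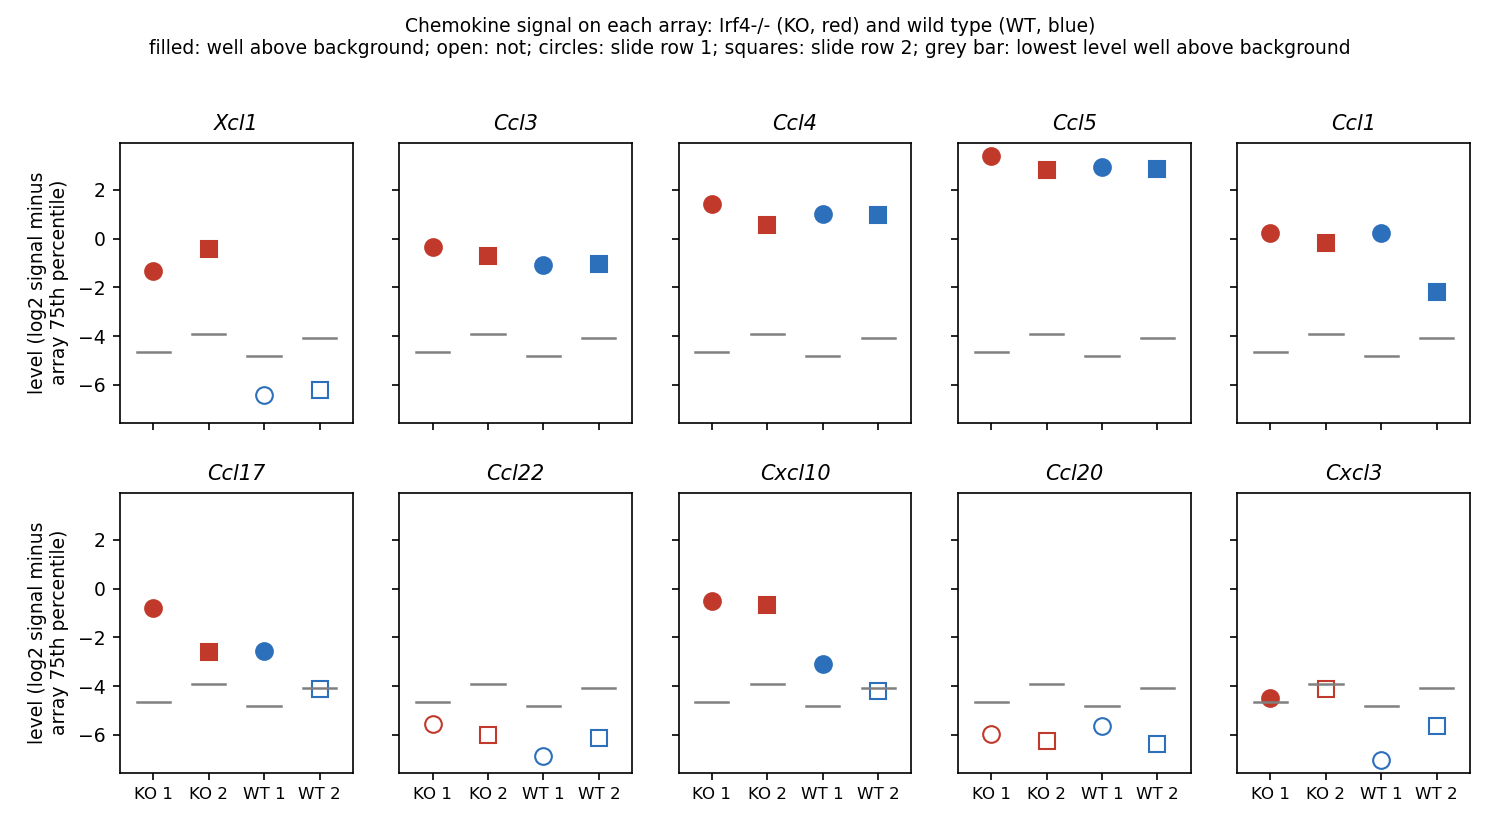
Level of the 10 chemokine genes on each array (log2 signal minus the array's 75th percentile), with the Irf4-/- arrays (KO, red) left of the wild-type arrays (WT, blue). Filled points are well above background, open points are not, and grey bars give each array's lowest level well above background. Xcl1 lies at -1.32 and -0.43 in Irf4-/- cells, against -6.40 and -6.20 in wild-type cells, while the points of Ccl4 and Ccl5 overlap between genotypes.

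Xcl1 alone was called higher in Irf4-/- cells, 1 of 7 tested, where 0.493% of all 20505 genes tested were called higher (limma, adjusted p under 0.05). None of the 7 was called lower, against 0.244% of all genes, and 2 of 7 (Xcl1 and Cxcl10) had an unadjusted p under 0.05, against 11.4% of all genes. Both Irf4-/- arrays lay above both wild-type arrays for Xcl1, Cxcl10 and Ccl3, against 17.9% of all genes, and below them for none, against 21.3% of all genes. Of the 4 genes above background on every array, this held for Ccl3 alone and none was called. The groups overlapped for Ccl1, Ccl4, Ccl5 and Ccl17. The median log2 difference of the 7 was 1.03, beside -0.02 for all genes tested. Xcl1, Ccl17 and Cxcl10 passed the background filter through the Irf4-/- arrays, which favours an upward difference, so these counts and the median are descriptions only. Over the 4 genes above background on every array the median was 0.37.

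**Figure D2:**
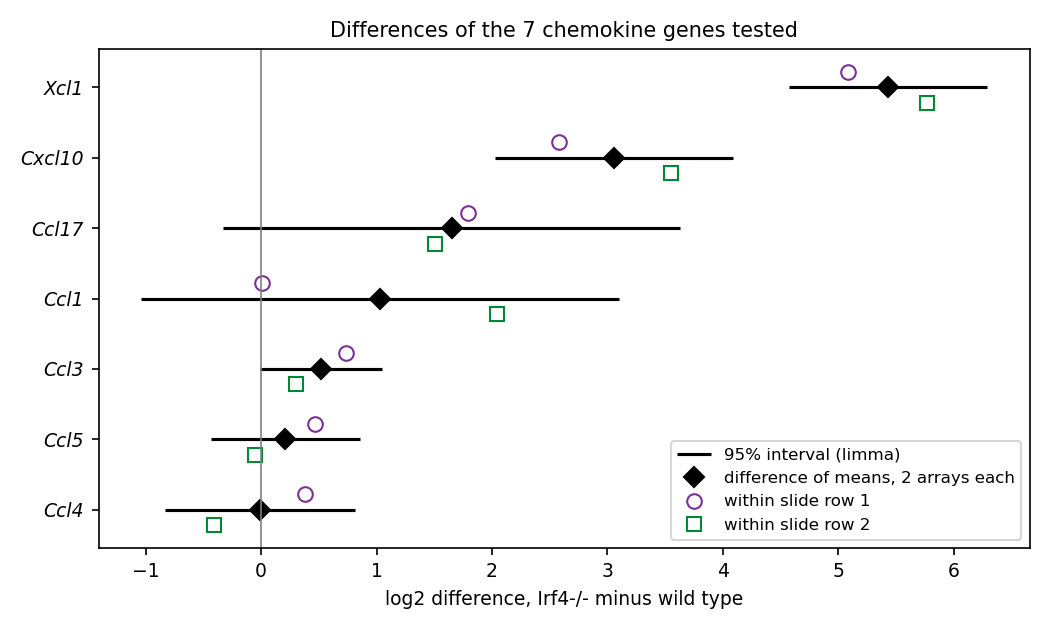
Log2 difference (Irf4-/- minus wild type) of the 7 chemokine genes tested, with the limma 95% interval as a bar and the differences within slide rows 1 (circle) and 2 (square). Xcl1 (5.43) and Cxcl10 (3.06) lie apart from 0 in both rows, whereas Ccl1 lies at 0.01 in row 1 and 2.04 in row 2.

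Xcl1 encodes lymphotactin, the XC-family chemokine of activated T and NK cells that attracts cross-presenting dendritic cells through the receptor Xcr1. Its levels were -1.32 and -0.43 in Irf4-/- cells, against -6.40 and -6.20 in wild-type cells. In units of processed signal this was 119 and 226 in Irf4-/- cells and 4.0 and 4.17 in wild-type cells. Both Irf4-/- arrays were well above background and both wild-type arrays were not, by a gap of 4.88 between the nearest arrays. Set against the lowest signal that counts as above background, Xcl1 was at least 11.9-fold higher in Irf4-/- cells, and at least 8.73-fold with Irf4-/- replicate 1 alone as the bright array. These bounds were not tested. The difference fitted by limma was 5.43 ± 0.33 (SE, adjusted p = 0.0293), 5.08 in slide row 1 and 5.77 in row 2. That difference and its p-value depend on signal below background, and it is no bound. The direction was the same under each of 12 alternatives that tested the gene, with differences from 1.57 (normexp with quantile normalization) to 5.87. These reuse the same 4 arrays, whose groups lay 4.88 apart, so the kept direction adds no support. The call ended with slide row as a block (adjusted p = 0.0967), with quantile normalization (0.0596), without wild-type replicate 1 (0.0929), without wild-type replicate 2 (0.103) and with no filter on low values (0.406), and adjusted p ran from 1.68e-46 to 0.406 over all settings. The lowest adjusted p came with median scaling, where among the genes named it followed the size of the difference. It therefore does not measure the spread of Xcl1 itself between arrays. Xcr1 was not above background on any array. Markers of NK cells, the other known makers of lymphotactin, were mostly absent: Ncr1 and Klre1 were above background on no array, Klrb1c on 1 array of each genotype and Klra8 on Irf4-/- replicate 1. The summed NK marker signal was 0.150 and 0.0619 times the array's 75th percentile in Irf4-/- cells, against 0.0952 and 0.0749 in wild-type cells. No NK marker was above background on replicate 2 of either genotype, so the sums there hold background signal only and cannot compare the genotypes. The part of NK cells in the Xcl1 result was not tested. In such bulk samples fewer expressing cells and less RNA per cell cannot be told apart.

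Ccl3, Ccl4 and Ccl5 encode the CC chemokines known as MIP-1alpha, MIP-1beta and RANTES, which activated T cells release to attract monocytes and effector T cells. All 3 were well above background on every array, and none was called. Ccl3 had levels of -0.34 and -0.72 in Irf4-/- cells, against -1.08 and -1.03 in wild-type cells. Its difference was 0.52 ± 0.20 (SE; 95% interval -0.01 to 1.05, adjusted p = 0.446), with 0.74 in slide row 1 and 0.30 in row 2. The groups did not overlap, with a gap of 0.30 between the nearest arrays. Ccl4 had levels of 1.40 and 0.54 in Irf4-/- cells, against 1.02 and 0.95 in wild-type cells, so the wild-type values lay between the Irf4-/- values. The difference was -0.01 ± 0.32 (95% interval -0.83 to 0.81, adjusted p = 0.998), with opposite signs in the rows (0.38 and -0.41). The second Ccl4 probe gave 0.64 and -0.30 in Irf4-/- cells, against 0.12 and 0.09 in wild-type cells, a difference of 0.07 with the same order of arrays. Ccl5 had levels of 3.40 and 2.81 in Irf4-/- cells, against 2.92 and 2.86 in wild-type cells. It differed by 0.21 ± 0.25 (95% interval -0.43 to 0.86, adjusted p = 0.904), again with opposite signs in the rows (0.47 and -0.05). The width of these intervals means that equal expression of Ccl4 and Ccl5 was not shown. All 3 genes were lower on Irf4-/- replicate 2 than on replicate 1, by 0.38 (Ccl3), 0.86 (Ccl4) and 0.59 (Ccl5), whereas the wild-type arrays lay within 0.07 of each other. Ccr1 and Ccr3, which are receptors for members of this trio, were above background on no array. Ccl3 and Ccl4 are direct neighbours on chromosome 11, beside Ccl6 and Ccl9, which separate them from Ccl5 and were above background on no array.

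Ccl1 encodes the ligand of Ccr8, made mainly by activated T cells. Its levels were 0.24 and -0.17 in Irf4-/- cells, against 0.23 and -2.21 in wild-type cells. Wild-type replicate 2 stood apart from the other 3 arrays, and the difference of 1.03 ± 0.80 (SE; 95% interval -1.04 to 3.10, adjusted p = 0.801) rested on it. Within row 1 the genotypes differed by 0.01 and within row 2 by 2.04, and without wild-type replicate 2 the difference was -0.19. Ccr8, the receptor of Ccl1, had levels of 2.85 and 3.0 in Irf4-/- cells, against 1.52 and 1.30 in wild-type cells. It differed by 1.51 ± 0.18 (SE), 1.33 and 1.69 in slide rows 1 and 2, without passing the test (adjusted p = 0.0543). Among 11351 named genes that exceeded background on all 4 arrays, those whose centred levels over the 4 arrays lay nearest to Ccl1 were Ly6d, Rpl39l, Ctsh and Il4i1, at Euclidean distances of 0.572, 0.583, 0.699 and 0.708. All 4 were likewise lowest on wild-type replicate 2, Ly6d with levels of 0.46 and -0.25 in Irf4-/- cells, against -0.35 and -2.45 in wild-type cells. With 4 arrays such likeness is a weak description. For Ccl4, the only one of the 7 tested here with a negative difference, the nearest were Mia, Etohd2, Lepr and Fam13c at 0.060 to 0.075, but 2100 genes lay within 0.5 of it.

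Ccl17 and Ccl22 encode the ligands of Ccr4, best known as products of dendritic cells. Ccl17 had levels of -0.78 and -2.59 in Irf4-/- cells, against -2.57 and -4.10 in wild-type cells, the last not well above background. The groups met at Irf4-/- replicate 2 and wild-type replicate 1, at -2.59 and -2.57. The difference was 1.65 ± 0.77 (SE; 95% interval -0.33 to 3.63, adjusted p = 0.551), with the same sign in slide rows 1 (1.79) and 2 (1.51). It was 0.75 without Irf4-/- replicate 1, 2.55 without Irf4-/- replicate 2 and 0.56 with normexp and quantile normalization. In both genotypes Ccl17 was lower in row 2, by 1.81 in Irf4-/- cells and 1.53 in wild-type cells. The B-cell markers Ms4a1, Cd79b and Blnk were, like Ccl17, highest on Irf4-/- replicate 1 and lowest on wild-type replicate 2. Ms4a1, encoding CD20, had levels of -0.30 and -2.16 in Irf4-/- cells, against -1.41 and -3.31 in wild-type cells. Pax5 was lowest on Irf4-/- replicate 2, with levels of -2.25 and -3.10 in Irf4-/- cells, against -2.74 and -2.75 in wild-type cells. Cd79a was highest on wild-type replicate 2, with -3.80 and -4.99 in Irf4-/- cells, against -4.35 and -2.75 in wild-type cells, and was below background on Irf4-/- replicate 2. None of these markers was called. The part of such cells in the Ccl17 result was not tested. Among dendritic-cell markers, Itgax and Clec9a were above background on no array and Flt3 on wild-type replicate 1 alone, while Zbtb46, Siglech, Cd209a and Batf3 were above background on all 4. Batf3 was called lower, by 3.63 on the log2 scale (limma adjusted p = 0.0318), where 0.244% of all genes were. Zbtb46, Siglech and Cd209a were not called. The part of dendritic cells in the Batf3 difference was not tested. The dendritic-cell sum, nearly all of it from the Siglech probe, was 55.9 and 72.3 in Irf4-/- cells, against 56.1 and 72.1 in wild-type cells. It therefore describes that probe and gives no measure of dendritic-cell content. Ccl22 was not above background on any array, with levels of -5.56 and -5.99 in Irf4-/- cells, against -6.88 and -6.13 in wild-type cells, and no fold is given. Ccr4, the receptor of both, had levels of 0.09 and -0.02 in Irf4-/- cells, against 1.90 and 1.31 in wild-type cells (difference -1.57 ± 0.25 SE, adjusted p = 0.0837).

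Cxcl10 encodes the interferon-induced ligand of Cxcr3. Its levels were -0.51 and -0.68 in Irf4-/- cells, against -3.09 and -4.22 in wild-type cells, the last not well above background. In processed signal this was 209 and 190 in Irf4-/- cells and 39.8 and 16.4 in wild-type cells. The groups did not overlap, with a gap of 2.41 between the nearest arrays. The difference was 3.06 ± 0.40 (SE; 95% interval 2.03 to 4.09), 2.58 in slide row 1 and 3.55 in row 2, and narrowly missed the threshold (adjusted p = 0.0600). It passed under 5 of 12 alternatives, namely normexp (adjusted p = 0.00712), median scaling, the deposited log2 table (0.0424), trend and robust settings (0.00106) and without Irf4-/- replicate 1 (0.0369), with a range of 3.49e-14 to 0.500 over all settings. The lowest adjusted p came with median scaling and likewise does not measure the spread of Cxcl10 itself. The difference itself ran from 1.39 (normexp with quantile normalization) to 3.63 (without wild-type replicate 1). Both the main value and that of row 2 rest on a wild-type signal below background. Cxcr3 had levels of 2.38 and 1.36 in Irf4-/- cells, against 3.12 and 3.27 in wild-type cells (difference -1.33 ± 0.37 SE, adjusted p = 0.250).

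Other interferon-induced genes were read beside Cxcl10, whose promoter letters are given above. Of 9 measured, Oasl2 was called higher (0.493% of all genes) and 8 were not called. For 8 of 9 both Irf4-/- arrays lay above both wild-type arrays (17.9% of all genes). The median difference of the 9 was 1.64, with 1.29 and 2.13 in slide rows 1 and 2. Oasl2, an oligoadenylate synthetase-like gene, was at least 43.8-fold higher, at least 24.5-fold with Irf4-/- replicate 1 alone as the bright array and at least 78.2-fold with replicate 2 alone. The test was of the limma difference of 6.64 ± 0.57 for Oasl2 (SE, adjusted p = 0.0318), which depends on wild-type signal below background. Its call ended with quantile normalization (adjusted p = 0.0839), with slide row as a block (0.0967), without wild-type replicate 1 (0.103) or 2 (0.117) and with no filter (0.406), within a range of 1.13e-69 to 0.406. The lowest adjusted p of Oasl2 again came with median scaling and does not measure its own spread. Ifit3 differed by 2.75 ± 0.77 (SE, adjusted p = 0.260), Irf7 by 2.12 ± 0.63 (adjusted p = 0.289), Rsad2 by 1.71 ± 0.72 (adjusted p = 0.490) and Usp18 by 1.64 ± 0.44 (adjusted p = 0.244). Irf4-/- replicate 2 weighed on these values. Without it Ifit3 differed by 1.59, Irf7 by 1.37 and Rsad2 by 0.75, none of them called, and without Irf4-/- replicate 1 by 3.91, 2.87 and 2.68, all called (adjusted p = 0.00654, 0.0457 and 0.0462). Ifit3 had levels of -1.97 and 0.35 in Irf4-/- cells, against -3.84 and -3.28 in wild-type cells, higher in row 2 in both genotypes. Cxcl10 was lower in row 2 in both, by 0.17 in Irf4-/- cells and 1.14 in wild-type cells. Its signal on wild-type replicate 2 was not well above background. Whether Cxcl10 and these genes share a cause was not tested. Among 10 NF-kappaB-induced genes none was called (5 at an unadjusted p under 0.05, against 11.4% of all genes) and the median difference was 0.47. Nfkbie differed by 0.73 (adjusted p = 0.317), Nfkb2 by 0.61 (adjusted p = 0.288) and Tnfaip3 by 0.59 (adjusted p = 0.315), while the cytokine gene Tnf differed by -0.63 (adjusted p = 0.441).

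**Figure D3:**
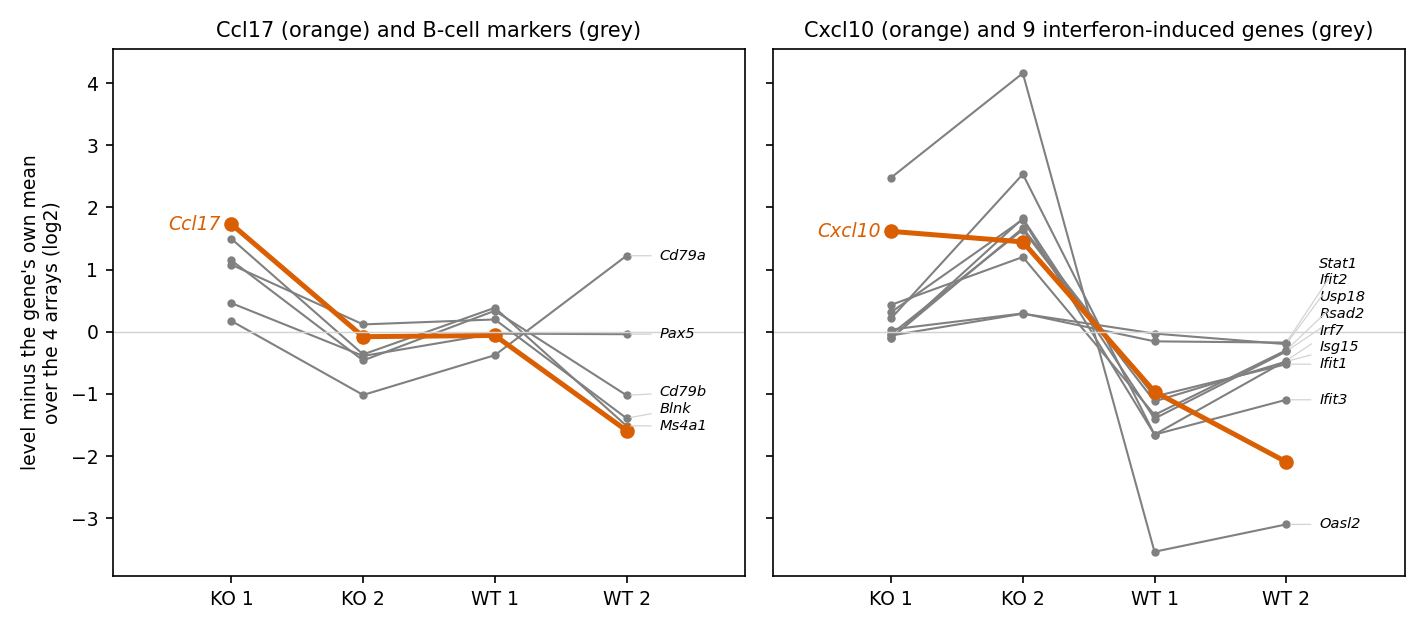
Level on each array minus the gene's own mean over the 4 arrays (log2), for Ccl17 with B-cell markers (left) and Cxcl10 with 9 interferon-induced genes (right); KO is Irf4-/-, WT is wild type, and lines join the arrays of 1 gene. Ccl17 and the B-cell markers shown other than Cd79a are highest on KO replicate 1, whereas the interferon-induced genes are highest on KO replicate 2 and Cxcl10 is about equal on both.

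Ccl20 and Cxcl3 gave no measured difference. Ccl20, the ligand of Ccr6 made by Th17 cells and epithelium, had levels of -5.96 and -6.25 in Irf4-/- cells, against -5.65 and -6.37 in wild-type cells, all below background and overlapping. Its receptor gene Ccr6 had levels of -1.80 and -3.19 in Irf4-/- cells, against -0.31 and -0.75 in wild-type cells (difference -1.97 ± 0.49 SE, adjusted p = 0.209). Cxcl3, a neutrophil attractant that acts through Cxcr2, had levels of -4.47 and -4.10 in Irf4-/- cells, against -7.03 and -5.65 in wild-type cells. Only Irf4-/- replicate 1 was above background, close to its limit of -4.67, and Cxcr2 was above background on no array. The neutrophil markers S100a8 and S100a9 were not above background on any array and Mpo was on wild-type replicate 1 alone. Of the macrophage markers Adgre1, Lyz2 and Fcgr1 were above background on no array, Cd14 on Irf4-/- replicate 1 alone, and Csf1r and Cd68 on all 4. The T-cell identity of the samples was borne out by Cd3e (7.06 and 6.74 in Irf4-/- cells, 7.06 and 6.76 in wild-type cells) and Cd4 (5.82 and 5.75 in Irf4-/- cells, 5.83 and 5.51 in wild-type cells). All 6 CD4 T-cell markers measured were above background on every array and none was called, with Cd5 differing by 0.86 and Cd28 by -0.48. Of the CD8 T-cell markers, Cd8a was above background on replicate 1 of each genotype and Cd8b1 on every array. Cd8b1 differed by -0.98 ± 0.17 (SE, limma adjusted p = 0.0979). The part of CD8 T cells in the chemokine results was not tested.

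Of 27 other chemokine ligands on the array, 21 were above background nowhere, 2 (Cxcl5 and Cxcl14) on Irf4-/- replicate 1 alone, and 4 were tested. None of the 4 was called (1 at an unadjusted p under 0.05, against 11.4% of all genes). Ccl27a differed by -0.34 ± 0.16 (SE, adjusted p = 0.576), Cxcl16 by -0.30 ± 0.25 (adjusted p = 0.829) and Ccl25 by -0.06 ± 0.20 (adjusted p = 0.978). The fourth, Cx3cl1, was named after its values were seen. It encodes the membrane-bound chemokine fractalkine and lies between Ccl22 and Ccl17 on chromosome 8. Its levels were -3.48 and -1.38 in Irf4-/- cells, against -4.82 and -6.12 in wild-type cells, above background on both Irf4-/- arrays and on neither wild-type array. Its signal was at least 4.04-fold that of wild-type cells, or at least 1.95-fold with Irf4-/- replicate 1 alone as the bright array. The limma difference of 3.04 ± 0.80 (SE) did not pass the test (adjusted p = 0.230) and depends on wild-type signal below background.

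Among receptors for the 10 chemokines, Ccr8, Ccr4, Ccr6 and Cxcr3 were above background on every array, and Xcr1, Ccr1, Ccr3 and Cxcr2 on none. None of the 4 detected was called, and all had an unadjusted p under 0.05 (11.4% of all genes). Both Irf4-/- arrays lay above both wild-type arrays for Ccr8 (17.9% of all genes) and below them for Ccr4, Ccr6 and Cxcr3 (21.3% of all genes). Of the 14 other receptors 7 were tested and none was called (4 at an unadjusted p under 0.05, against 11.4% of all genes). The largest difference among those above background on every array was that of Ccrl2, an atypical receptor that presents chemerin, with levels of 0.64 and 1.57 in Irf4-/- cells, against -1.61 and -1.17 in wild-type cells (difference 2.49 ± 0.37 SE, adjusted p = 0.0734). Cxcr6 differed by 1.21 (adjusted p = 0.228), Ccr9 by 0.96 (adjusted p = 0.516) and Ccr7, the lymph node homing receptor, by 0.86 (adjusted p = 0.138). Calls of receptors depended on the setting. Ccr8, Ccr4 and Ccrl2 passed with normexp (limma adjusted p = 0.00819, 0.017 and 0.0222) and with trend and robust settings. They did not pass with quantile normalization (0.0859, 0.126 and 0.131), slide row as a block, no filter or the mean of all probes.

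**Figure D4:**
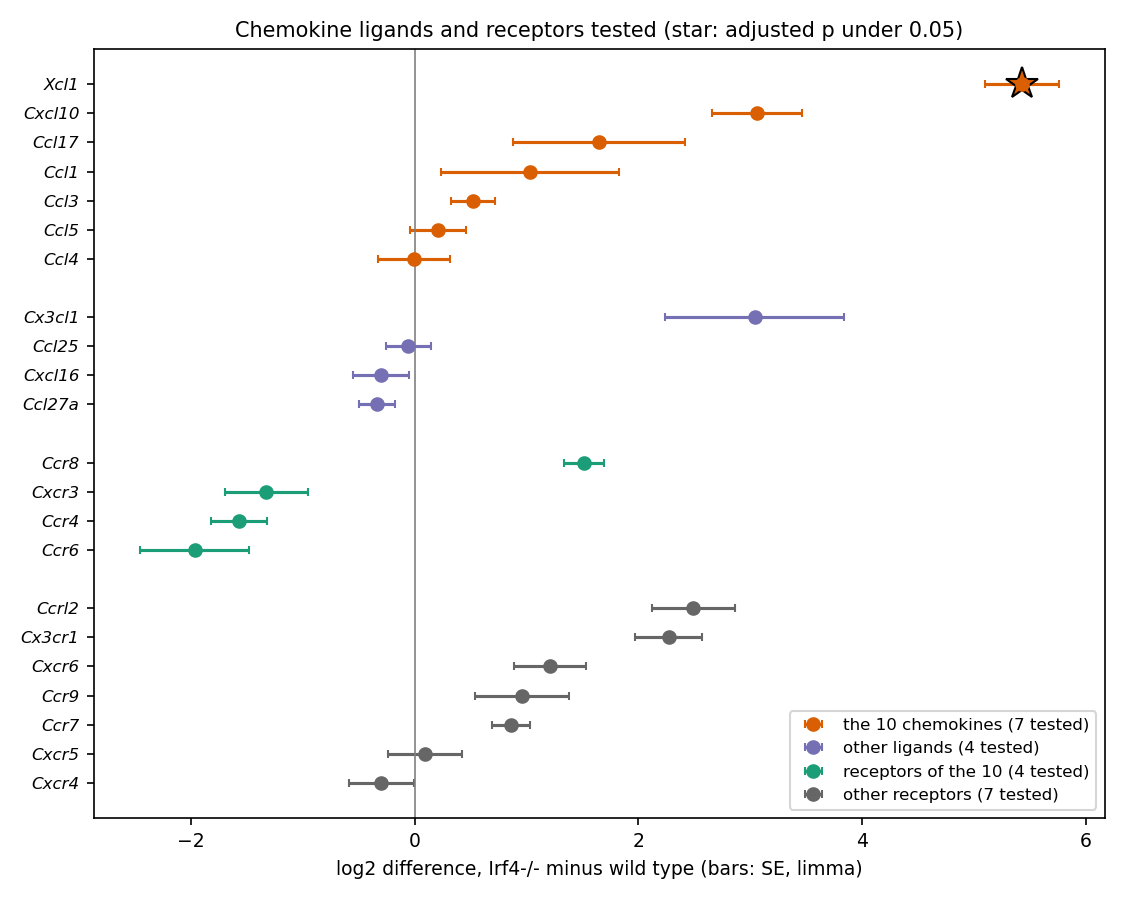
Log2 difference (Irf4-/- minus wild type) with its standard error for the chemokine ligand and receptor genes tested, in 4 groups from top to bottom; the star marks an adjusted p under 0.05. Xcl1 alone has a star, at 5.43, and it, Cx3cl1 and Cx3cr1 are set against wild-type signal below background on both arrays. For Cxcl10 and Ccl17 the signal was below background on wild-type replicate 2.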

How the data were processed

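Transcript levels in 2 Irf4-/- and 2 wild-type samples were read from the scanner files of 4 one-colour (Cy3) Agilent arrays. Per the file headers, the authors used Agilent Feature Extraction 11.0.1.1 to read the spots (the submitters' processing notes name version 9.1), and the deposited intensity used here, the processed signal, was background-subtracted but not normalized between arrays. Per the labels, 1 protocol names shorter cultures than day 2, and the day of the titles was taken. The authors' deposited log2 table equalled the same values, scaled to the 75th percentile and centred per probe, up to a shift of at most 0.03, with column medians of -0.11 and 0.12 (Irf4-/-) and -0.17 and 0.10 (wild type); it served as an alternative, since centring removes the level. Control and flagged spots were left out, spots of a probe averaged, and the brightest probe of a gene kept; a probe counted as well above background when all its spots were. Accessions of 32994 probes matched 22911 symbols in RefSeq GRCm38.p6, and 23611 probes kept their file name. The 20505 genes that exceeded background on both arrays of either genotype went into limma 3.58.1 (lmFit, eBayes; R 4.3.3). P-values were adjusted over all of them by Benjamini-Hochberg, and calls needed an adjusted p under 0.05. The fit was also run on simulated arrays with independent noise, which checked the estimated differences and not the calls. An "at least" fold sets the bright group's mean against the dim group's, in which each array counts at its detection limit (its lowest signal flagged as above background) unless the probe was brighter. Arrays number 2 per genotype, which limits the precision, and since nothing says that mice were separate, p-values measure the spread between these samples. Those under median scaling do not measure a gene's own spread, because they followed the size of the difference among the genes named.

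All 10 genes are named, with every tested receptor of theirs; of other lists, genes called and up to 4 with the largest differences above background on every array. The members and lists were chosen with earlier results of these data known. The alternatives were 13 other settings; normexp used the median spot signal, because the files hold no mean signal. Some genes of the lists are not reported here.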

Additional observations from a re-analysis of the deposited data

How the results depend on the processing

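No chemokine gene was called lower by limma under any of the 13 alternatives, and Xcl1 and Cxcl10 kept their direction wherever they were tested. All these settings reuse the same 4 arrays, on which the groups of both genes lay apart, so the kept direction adds no support. With median scaling, adjusted p followed the size of the difference whatever a gene's own spread. Ccl17, whose groups overlapped, was thus called there by limma (adjusted p = 0.00065, against 0.551 in the main fit). The number of the 10 called higher was 2 with normexp and 3 with median scaling (Xcl1, Cxcl10 and Ccl17). It was 2 with the deposited log2 table and 2 with trend and robust settings. It was 0 with quantile normalization, with no filter, with slide row as replicate block, and with only genes above background on all 4 arrays, which leaves out Xcl1. Leaving out 1 array gave 0 to 2. Over all genes the counts called higher and lower were 275 and 161 with normexp, 594 and 448 with median scaling, 3 and 2 with quantile normalization, 179 and 81 with the deposited table, and 486 and 311 with trend and robust settings. They were 0 and 0 with no filter (2099 at an unadjusted p under 0.05) and with slide row as replicate block (3195), and 0 to 331 higher and 0 to 156 lower when 1 array was left out, both counts being 0 without wild-type replicate 1 (1864 unadjusted) or 2 (1678). The block is slide row, which coincides with replicate number; deviations of same-numbered arrays correlated at r = 0.348, and the labels do not say that a number marks a shared experiment. The median difference of the tested chemokines was 0.37 with genes above background on all 4 arrays and 0.55 to 2.25 when 1 array was left out. Small differences changed sign: Ccl4 was 0.03 and Ccl25 0.02 as the mean of all probes, Cxcl16 0.15. With 1 array left out Ccl1 ran from -0.19 to 2.25, Ccl4 from -0.44 to 0.42, Ccl5 from -0.08 to 0.51 and Ccl25 from -0.24 to 0.11. Median scaling moved the median of all genes from -0.02 to -0.13. The causes were not tested.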
